A study of Mus musculus with 80 samples.

Results

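The regions described here are candidate fibroblast enhancers that carried H3K27ac in mouse embryonic fibroblasts (MEFs) and in no later sample of a chemical reprogramming series. They were selected on their H3K27ac calls, by merging the 8 deposited H3K27ac peak lists on chromosomes 1 to 19, X and Y. A merged region was kept when it lay more than 5 kb from both ends of every protein-coding gene, overlapped a peak of D0, and overlapped no peak of D2, D4, D6, D8, D10, D12 or iPSC. This gave 10882 regions, called lost regions below, of 83866 merged regions in all and of 22021 distal regions with a D0 peak (49.4%, Wilson 95% interval 48.8 to 50.1). Their D0 peak and their absence from later H3K27ac lists are therefore descriptions and are given no test. "Lost" means that no peak was listed, not that the signal was 0.

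The series used CUT&Tag, in which an antibody to a histone mark tethers a transposase that cuts and tags the DNA beside it. D0 cells were MEFs of 129XOG2 E13.5 embryos, which carry the OG2 transgene, a germline Pou5f1 reporter, and were grown in serum medium. D2, D4, D6, D8, D10 and D12 are the same kind of cells after that many days in reprogramming medium, and iPSC are the resulting stem cells, grown on a feeder layer (its cells are not named in the labels) with LIF, CHIR99021 and PD0325901. By the labels there were 2 libraries per mark and stage over 5 marks, but 1 list was deposited per mark and stage, so no value has a replicate spread. Intervals cover counting error only, and neighbouring regions are not independent. In bulk samples, fewer cells with a mark and less of the mark per cell cannot be told apart.

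Enhancers are stretches of DNA, often far from the genes they act on, where transcription factors bind and recruit acetyltransferases that place H3K27ac on nearby nucleosomes. H3K4me3 marks promoters, H3K27me3 is placed by Polycomb at silenced genes, H3K9me3 marks heterochromatin, and H3K18la is a lactate-derived mark found at active promoters and enhancers. In fibroblasts, AP-1 (Fos and Jun family dimers), TEAD and RUNX factors are known to bind enhancers of matrix, adhesion and cytoskeletal genes.

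A small part of the lost regions overlapped an annotated start site, mostly of non-coding RNA, and there the DNA letters can be shown. Of 10882 lost regions, 160 (1.47%) overlapped a 300-base RefSeq start-site window, against 195 of 4536 distal D0 regions that were absent at D2 and called again later (4.30%) and 694 of 6603 that were called at D2 (10.5%). Among the 160, 114 overlapped a window of a lncRNA gene and 48 one of a protein-coding gene, 2 of them both. An internal start of a long gene, or a gene on the edge of the annotation, can lie more than 5 kb from the gene ends that the rule used. The sequences below are the stretches of such windows that lie inside lost regions, from RefSeq on GRCm38.p6, which shares its chromosome coordinates with mm10. The first 4 are shown because they hold AP-1 letters, which most such windows lack, and the last because its lost region kept a promoter mark. Stretches at Gm34648 (near Igfbp7) and Gm39196 (near Tpm4), also in lost regions, held neither AP-1 nor RUNX letters and are not shown. Capitals mark TGANTCA (AP-1), which reads the same on both strands, and TGTGGT (RUNX) on either strand.
Egfros, chr11:16830694-16830928, minus strand: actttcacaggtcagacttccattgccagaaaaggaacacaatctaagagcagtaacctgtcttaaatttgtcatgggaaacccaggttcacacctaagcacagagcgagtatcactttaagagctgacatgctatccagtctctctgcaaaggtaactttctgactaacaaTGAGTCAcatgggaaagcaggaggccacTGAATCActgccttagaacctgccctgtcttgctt
Gm40659, chr13:5258552-5258851, plus strand: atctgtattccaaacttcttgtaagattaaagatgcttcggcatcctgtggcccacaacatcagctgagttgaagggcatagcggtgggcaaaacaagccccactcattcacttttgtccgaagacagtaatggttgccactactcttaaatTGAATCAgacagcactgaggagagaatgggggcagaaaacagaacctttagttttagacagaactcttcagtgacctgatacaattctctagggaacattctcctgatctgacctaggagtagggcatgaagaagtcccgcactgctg
Atp8b4, chr2:126491504-126491803, minus strand: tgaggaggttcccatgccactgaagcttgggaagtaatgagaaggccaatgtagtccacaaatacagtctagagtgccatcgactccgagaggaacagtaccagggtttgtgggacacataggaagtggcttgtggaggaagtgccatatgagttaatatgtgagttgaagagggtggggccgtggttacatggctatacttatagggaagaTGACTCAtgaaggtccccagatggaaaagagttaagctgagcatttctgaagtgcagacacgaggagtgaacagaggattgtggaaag
Gm31608, chr15:81216889-81217188, plus strand: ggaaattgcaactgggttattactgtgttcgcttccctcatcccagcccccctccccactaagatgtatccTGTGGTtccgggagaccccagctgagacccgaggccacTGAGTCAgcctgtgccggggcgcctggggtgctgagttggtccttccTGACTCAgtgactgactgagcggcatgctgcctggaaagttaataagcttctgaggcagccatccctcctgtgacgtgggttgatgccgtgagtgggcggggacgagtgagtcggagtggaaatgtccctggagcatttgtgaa
Nfix, chr8:84775779-84775892, minus strand: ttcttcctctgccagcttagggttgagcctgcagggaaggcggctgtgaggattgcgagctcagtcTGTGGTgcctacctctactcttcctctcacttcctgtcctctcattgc

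Egfros, a lncRNA gene inside Egfr, starts in a lost region with a D0 fold enrichment of 4.67 over the local background and 37 fragments at its summit, and 2 AP-1 matches lie within it. Gm40659 starts 603 kb from the nearest protein-coding gene, Klf6, in a lost region with a D0 fold of 6.79. The stretch at Atp8b4, a phospholipid flippase gene, had a D0 fold of 6.54 and that of Gm31608 6.06. Egfros and Gm40659 carried no peak of the other 4 marks at any stage. The region at Atp8b4 had H3K27me3 at D6. That at Gm31608 had H3K4me3 at D8, H3K18la at D6, H3K27me3 at D10 and H3K9me3 at D0 and D4. The Nfix stretch, at an internal start of a nuclear factor I gene, had 68 fragments at its D0 summit. It kept H3K4me3 at D0, D2, D4, D6 and D8, gained an H3K27me3 peak in the iPSC list, and had H3K18la at D6 and in iPSCs.

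AP-1 letters were more frequent in the start-site windows of lost regions than in those of regions called at D2, and this went with the lack of H3K4me3. Against regions called again after D2 the share was higher too, but the intervals overlapped. TGANTCA was in 42 of 183 windows of lost regions (23.0%, 17.4 to 29.6), in 30 of 228 of regions called again after D2 (13.2%, 9.38 to 18.2) and in 83 of 850 of regions called at D2 (9.76%, 7.95 to 11.9). Of all 32851 windows of the table, 7.81% held it. Among windows whose D0 region had no H3K4me3 peak, the shares were 28.5% of 137 in lost regions, 25.0% of 76 in regions called again and 26.4% of 106 in regions called at D2. Where the region had H3K4me3 at D0, they were 6.52% of 46, 7.24% of 152 and 7.39% of 744 in the same order. Within each of these strata the intervals of the 3 classes overlapped, so no difference between lost and kept regions was detectable within a stratum. The letters differed between regions with and without H3K4me3, and so did base composition. Mean GC was 50.5%, 52.0% and 51.6% in windows without H3K4me3 and 56.5%, 60.7% and 60.3% in those with it, in the same order. The part of base composition in the AP-1 shares was not tested.

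The other motifs stood closer to the background. TEAD letters (GGAATG, both strands) were in 20.8% of the windows of lost regions and in 14.7% of all windows. RUNX letters were in 18.03% and 16.8%. ETS letters (CCGGAAG, both strands), typical of promoters, were in 4.37% of the windows of lost regions, against 10.1% in regions called at D2 and 8.86% of all windows. For the other 8 of 12 motifs searched, the share in lost regions ran from 3.28% to 17.5% and differed from that of all windows by at most 2.43 percentage points. A match is a description of letters, not of bound factors.

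Of 1005 RefSeq miRNA hairpins, 5 lay in the 10882 lost regions, 4 in the 4536 regions called again and 13 in the 6603 called at D2. These counts are small and lost regions were also the narrowest (median 472 bp, against 583 and 766 bp), so no ranking of the classes is drawn from them. Among the 5, miR-34a and miR-206 bear on fibroblast and muscle identity. miR-34a is a p53-induced miRNA that limits reprogramming of mouse fibroblasts, and miR-206 is a skeletal muscle miRNA. Capitals mark the seed, bases 2 to 8, of each mature RNA.
miR-34a-5p, chr4:150068473-150068494, plus strand: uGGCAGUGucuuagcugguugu
miR-206-3p, chr1:20679055-20679076, plus strand: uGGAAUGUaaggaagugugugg

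The lost region over the Mir34a hairpin had a D0 fold of 3.58 and an H3K18la peak at D0, and the one over Mir206 a fold of 4.09 and no peak of another mark. The other 3 hairpins, Mir344, Mir344d-2 and Mir6928, lay in lost regions with folds of 5.03, 4.27 and 5.10.

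At D0 the lost regions were narrower and lower than the regions that stayed, which is a property of the H3K27ac lists that chose them. Their median width was 472 bp, against 583 bp in regions called again and 766 bp in regions called at D2. Their D0 fold had a median of 4.13 (5th to 95th percentile 2.75 to 6.13), against 4.37 and 4.80. The number of fragments at the D0 summit, solved from the authors' fold and p-value, had a median of 28 in lost regions, 31 in regions called again and 42 in regions called at D2. The overlap of the classes was wide, with the middle 50% of lost regions between 21 and 37 fragments and of regions called at D2 between 29 and 59.

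**Figure D1:**
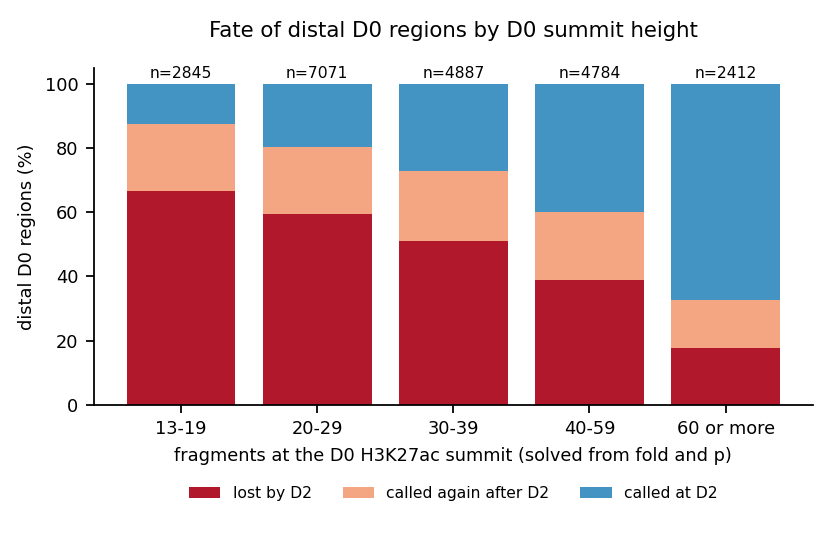
Share of distal D0 regions (%) that were lost by D2 (red), absent at D2 but called again later (light orange) or called at D2 (blue), by the number of fragments at the D0 summit. The lost share was 66.7% at 13 to 19 fragments and 17.7% at 60 or more, and 428 regions of the highest bin were lost.

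The lost share fell with summit height, and high D0 regions were among the lost ones as well. Of the 2845 distal D0 regions with 13 to 19 fragments at the summit, 66.7% (65.0 to 68.4) were lost, and of the 2412 with 60 or more, 17.7% (16.3 to 19.3). The genome-wide background solved from the lists was 3.32 fragments per position at D2 and 2.98 at D0 (range over the 8 H3K27ac lists 2.82 to 3.76), and the part of depth in the loss was not tested. At a p-value of 1e-05 under a Poisson model, a peak over that background needed 14 fragments at D2 and 13 at D0, and more where the local background was higher. The D2 list held 22962 peaks and the D0 list 37784. Where a D0 region lay within 5 kb of a gene end, 2617 of 15174 (17.2%) were in no later list.

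By the rule no lost region overlapped a later H3K27ac peak, so the distances to such peaks are descriptions. The nearest D2 H3K27ac peak was a median of 23.8 kb away, 442 lost regions (4.06%) had one within 1 kb, and 13.9% had none within 100 kb. Taking all 7 later lists together, the nearest peak was a median of 8.23 kb away. It lay within 1 kb for 1195 lost regions (10.98%) and within 5 kb for 3656 (33.6%). Of the 4536 regions that were absent at D2 and called again, 1876 (41.4%) came back first at D6, 1241 of them in the D6 list alone, and 201 were called again only in iPSCs.

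By position, lost regions lay within genes slightly more often and, between genes, farther out. A gene body held 6173 of them (56.7%, 55.8 to 57.7), against 55.6% (54.2 to 57.1) of regions called again and 51.4% (50.2 to 52.6) of regions called at D2. Between genes, the median distance to the nearest protein-coding gene was 46.7 kb for lost regions, 37.7 kb for regions called again and 36.6 kb for regions called at D2. The farthest lost region was 2070 kb from a gene. At the 5 kb limit, the closest lost regions lay 5001 bp (Rabl6), 5004 bp (Apol7e) and 5005 bp (Eif4e) from a gene end, with folds of 3.70, 4.53 and 3.30. D0-only regions that just failed it lay 4995 bp (Upk3bl), 4990 bp (Specc1) and 4990 bp (Mllt1) away, with folds of 4.73, 4.35 and 3.50. The lost share ran from 46.9% (chromosome 16) to 51.6% (chromosome 8) over the autosomes, was 56.7% (50.9 to 62.2) on X, and on Y was 0 of 9 regions, which allows up to 29.9%.

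Most lost regions had no peak of another mark. None of the other 4 marks was called at any of the 8 stages on 7858 of 10882 lost regions (72.2%, 71.4 to 73.0), against 35.5% of regions called again, 19.2% of regions called at D2 and 48.7% of all distal D0 regions. The other marks were not used to choose the regions. For them a region was taken as its strongest D0 H3K27ac peak, with a shared 1 bp counted as overlap. Lost regions were also narrower and lower at D0, and the share without any other mark was not divided by width or summit height.

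H3K4me3 was rare on lost regions at D0 and was kept there less often than on the others. It was called on 586 lost regions at D0 (5.39%, 4.98 to 5.82), against 15.5% of regions called again, 38.0% of regions called at D2 and 17.3% of all distal D0 regions. At D2, when by the rule no H3K27ac peak was listed, 587 lost regions had H3K4me3 (5.39%), with 20.9% over all distal D0 regions. The counts of lost regions at the later stages were 404 (D4, 17.2% over all), 491 (D6, 18.8% over all), 440 (D8, 17.9% over all), 337 (D10, 16.8% over all), 263 (D12, 15% over all) and 428 (iPSC, 15.5% over all). Of the 586 lost regions with H3K4me3 at D0, 326 also had it at D2 (55.6%, 51.6 to 59.6), against 75.2% (71.9 to 78.2) of 705 regions called again, 90.2% (89.0 to 91.3) of 2510 regions called at D2 and 82.1% of all distal D0 regions with it. In iPSCs it was on 150 of the 586 (25.6%, 22.2 to 29.3), against 54.0%, 67.3% and 58.4% in the same order. It was on 103 lost regions at all 8 stages (0.947%, 8.46% over all). A further 698 lost regions (6.41%, 15.3% over all) had no H3K4me3 at D0 and had it in a later list.

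The difference in H3K4me3 was also present within bins of summit height. Among regions with 20 to 29 fragments at the D0 summit, 3.07% of lost regions had H3K4me3 at D0, against 9.79% of those called again and 18.6% of those called at D2. Among regions with 60 or more fragments the shares were 19.9% (16.4 to 23.9), 37.7% (32.9 to 42.8) and 66.4% (64.0 to 68.6) in the same order. In each of the 5 height bins the interval of lost regions lay below that of regions called at D2. The overlap with annotated start sites moved with it: H3K4me3 at D0 was on 24.4% of the 160 lost regions with a start-site window and on 5.10% of the 10722 without, against 85.4% and 32.4% of regions called at D2.

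H3K18la was also on few lost regions at D0, and few of these had it at D2. It was called on 574 lost regions at D0 (5.27%, 4.87 to 5.71; 14% of all distal D0 regions) and on 60 at D2 (0.551%, 6.09% over all). It was on 110 at D4 (9.7% over all), on 558 at D6 (5.13%, 20.8% over all), on 276 at D8 (12.7% over all), on 29 at D10 (4.73% over all), on 38 at D12 (4.88% over all) and on 116 in iPSCs (6.96% over all). Of the 574 lost regions with H3K18la at D0, 7 had it at D2 (1.22%, 0.592 to 2.50), against 10.7% of 587 regions called again, 37.4% (35.2 to 39.6) of 1916 regions called at D2 and 25.5% of all distal D0 regions with it. At D6, 72 of the 574 had it (12.5%, 55.6% over all), and 450 had it at no later stage (78.4%, 31.3% over all). The H3K18la lists held 13832 peaks at D0, 7009 at D2 and 18455 at D6. The D2 list may come from 1 library, since its peak names bear a replicate number. With the D0 list shortened, H3K18la was on 1.11% of lost regions at D0, against 0.551% at D2.

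**Figure D2:**
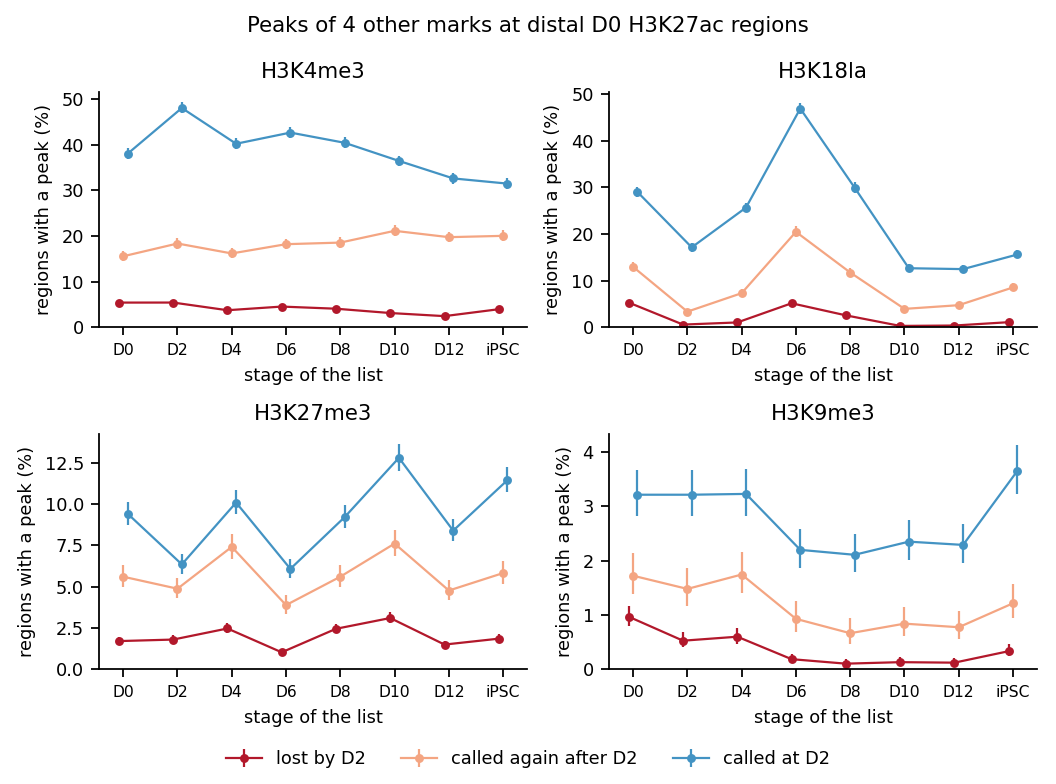
Share of regions (%, Wilson 95% bars) with a peak of H3K4me3, H3K18la, H3K27me3 or H3K9me3 in the list of each stage, for regions lost by D2 (red), called again after D2 (light orange) and called at D2 (blue). Lost regions stood lowest for each mark and stage shown, for H3K4me3 at 5.39% at D0, against 15.5% and 38.0%.

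Repressive marks were called on few lost regions. H3K27me3 was on 185 at D0 (1.70%, 1.47 to 1.96; 4.82% of all distal D0 regions), on 337 at D10, its highest count (3.10%, 6.93% over all), and on 201 in iPSCs (1.85%, 5.54% over all). Across stages 971 lost regions had it at least once (8.92%, 15.6% over all), and 786 of these had none at D0 (7.22% of lost regions, 10.8% over all). H3K9me3 was on 105 at D0 (0.965%, 1.79% over all), on 11 at D8 (0.101%, 0.817% over all) and on 36 in iPSCs (0.331%, 1.51% over all). The H3K9me3 lists held 17372 peaks at D0, 7591 at D8 and 19357 in iPSCs.

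Lost regions were spread over many genes. They were nearest to 4758 protein-coding genes, 68% of the 7002 genes nearest to any distal D0 region and 21.7% of all 21887. Nearest in position does not show which gene an enhancer acts on. Lpp, a LIM protein of focal adhesions, and Ctif, a translation factor of the cap-binding complex, had most, with 22 of 40 and 22 of 31 distal D0 regions lost, followed by Ldlrad4, a membrane inhibitor of TGF-beta signalling, with 19 of 22. The RNA-binding protein gene Rbms3 had 18 of 33. Sugct had 17 of 25, the pseudokinase gene Trib2 17 of 21, the homeodomain factor gene Zfhx3 17 of 29 and the growth regulator Myc 17 of 31. Nav2 and Ankrd55 each had 16 of 19, Gse1 16 of 22, and the transcription factor genes Foxp1 and Bach2 each 16 of 27. Slit3, a secreted guidance ligand, had 15 of 22.

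**Figure D3:**
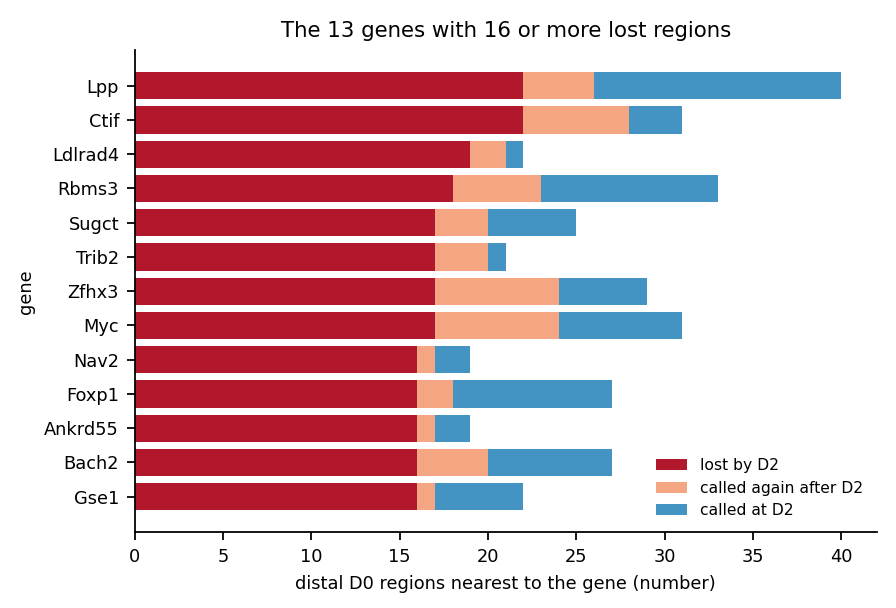
Number of distal D0 regions nearest to each of the 13 genes with 16 or more lost regions, divided into regions lost by D2 (red), called again after D2 (light orange) and called at D2 (blue). Lpp had 22 lost of 40 regions, and for Trib2, Nav2, Ankrd55 and Ldlrad4 over 80% of the bar is red.

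Neighbouring regions were joined into domains where they lay within 12.5 kb. Of the lost regions, 5487 stood alone, which is 48.3% of the 11365 distal D0 regions that did. In larger domains the lost share was 46.9% to 51.6%, so it hardly changed with domain size. Of 1361 domains of 3 or more distal D0 regions, 160 were lost whole, and the longest run was inside Egfr, the epidermal growth factor receptor gene, where all 8 regions between chr11:16809276-16851487 were lost. Their D0 folds, in order of position, were 4.65, 3.56, 3.54, 3.62, 4.67, 5.49, 3.63 and 3.66, with 28 to 60 fragments at the summits. Nearest to Egfr, 12 of 13 distal D0 regions were lost, and the other was called again after D2. The start site of Egfr itself kept H3K27ac and H3K4me3 in all 8 lists. Other domains lost whole were those of Dip2b (7 regions), Arhgap21 and Babam2 (6 each), and Man1c1, Creb5, Fmnl2, Adam12 and Atoh8 (5 each).

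Col8a1, a short-chain collagen gene, had 9 of 10 regions lost, with D0 folds of 3.19 to 5.39. Runx1, a transcription factor of fibroblast and blood cell enhancers, had 15 of 24, with folds of 3.21 to 6.14 in lost regions and 2.78 to 6.03 in the 5 called at D2. Around Myc 17 of 31 were lost, up to 708 kb from the gene, interspersed with 7 called at D2. The lost regions of Myc had a median of 35 fragments at the D0 summit, against 60 for those called at D2. At Runx1 the medians were 34 and 62.

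**Figure D4:**
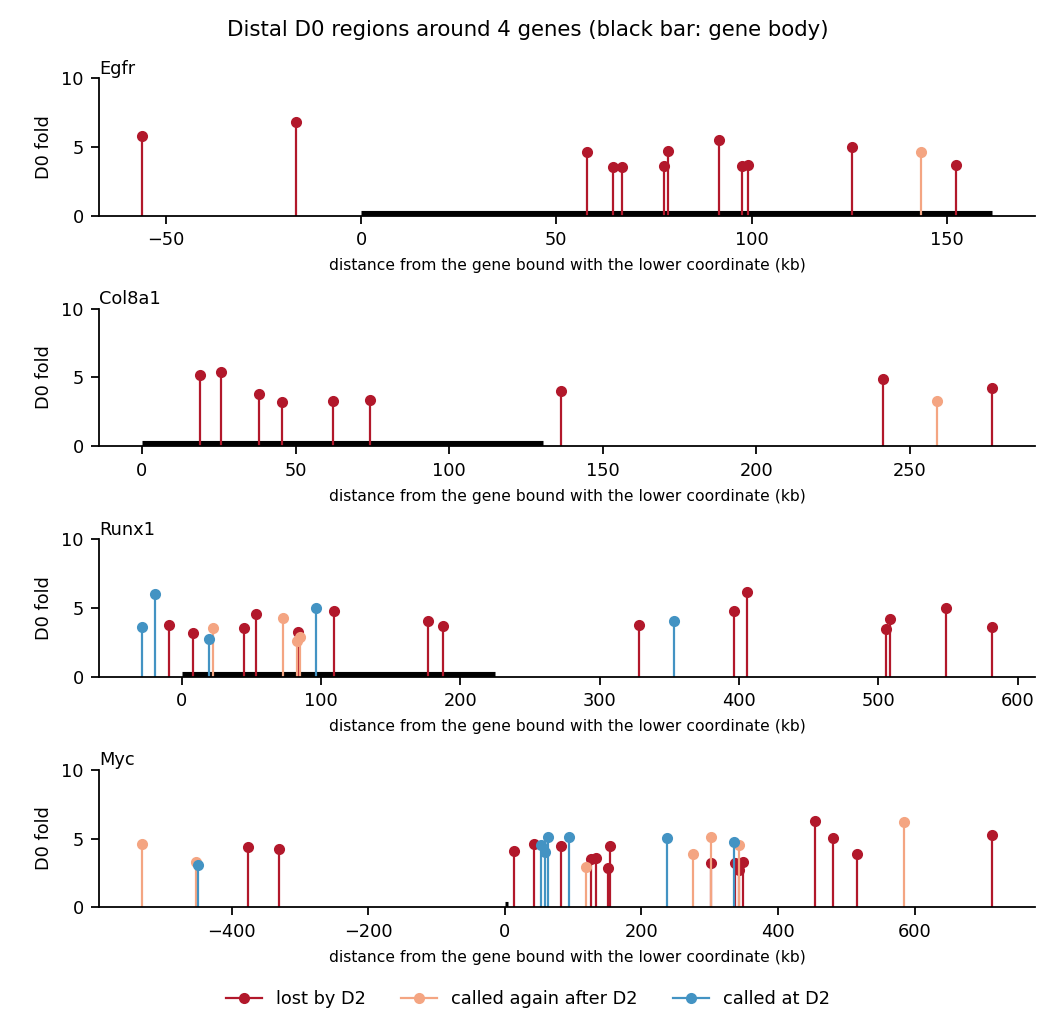
Distal D0 regions nearest to Egfr, Col8a1, Runx1 and Myc, by distance (kb) from the gene bound with the lower coordinate, with the authors' D0 fold enrichment as height and the gene body as a black bar. Lost regions (red) fill the Egfr and Col8a1 loci, where 12 of 13 and 9 of 10 were lost, and alternate with regions called again (light orange) or called at D2 (blue) at Runx1 and Myc.

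Read by gene list, the lost share of most lists had an interval that included the 49.4% of all distal D0 regions. The interval lay above that value for matrix genes (lower bound 55.4%), and barely so for receptors and surface genes (49.97%) and MEF markers (50.4%). Regions of the same locus, such as the 12 lost ones nearest to Egfr in the receptor list, are not independent, which the intervals do not take into account. These shares use the contrast of the rule and are descriptions. Every MEF marker gene is also on another of the lists, so the MEF marker share is not a separate result. Near the 45 genes of collagens and matrix proteins, 145 of 235 distal D0 regions were lost (61.7%, 55.4 to 67.7). Col5a1, a fibrillar collagen, had 10 of 13 lost, Fn1 (fibronectin) 10 of 15, Thbs1 (thrombospondin) 11 of 17, Fbn2 (a fibrillin) 8 of 9, and the basement membrane gene Nid1 4 of 4, while Col12a1 had 3 of 7 and Col6a2 2 of 5. The highest lost region of this list lay 186.5 kb from Adamts5, an aggrecan-cleaving protease, with a D0 fold of 7.57.

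Near growth factor receptors and surface genes of fibroblasts, 125 of 221 were lost (56.6%, 50.0 to 62.9). Igf1r, the IGF receptor, had 12 of 16, the adhesion gene Ncam1 15 of 22, Nrp1, a co-receptor, 8 of 13, and Pdgfrb, the PDGF receptor of mesenchyme, 4 of 4. Fgfr2, an FGF receptor, had 0 of 7, and the integrin genes Itga8 and Itga5 had 1 of 6 and 0 of 3. Near TGF-beta ligands, receptors and targets 67 of 130 were lost (51.5%). Ltbp1, which stores latent TGF-beta in the matrix, had 11 of 18, the ligand gene Tgfb2 8 of 13 and the signal transducer Smad3 7 of 13, while the inhibitory Smad6 had 2 of 8. The highest lost region there, with a fold of 7.13, lay 268 kb from Inhba, an activin subunit.

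Near mesenchymal and fibroblast transcription factors, 189 of 382 were lost (49.5%). Runx2, the osteoblast factor, had 8 of 11 lost, Nfib 12 of 22, Twist2 5 of 7 and Tbx5 3 of 3. Tcf4 had 3 of 22 and Nfia 3 of 16, and single genes of the list thus lay far on both sides of the whole. Near cytoskeleton and contractile genes 99 of 206 were lost (48.1%), with Tns3, a focal adhesion tensin, at 13 of 24 and Actn1, an actinin, at 1 of 6. Near TEAD and YAP factors and targets it was 32 of 70 (45.7%), where Tead1 itself had 11 of 19 and the YAP targets Ankrd1 and Ccn1 4 of 5 and 1 of 5. Near AP-1 factor genes it was 13 of 32 (40.6%), 5 of 8 at Fos and 1 of 9 at Jun, and near senescence and p53 barrier genes 15 of 41 (36.6%). Pluripotency genes had 20 of 42, 8 of 16 of them at Klf4, which fibroblasts also express. Epithelial genes had 3 of 11 and housekeeping genes 3 of 12.

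**Figure D5:**
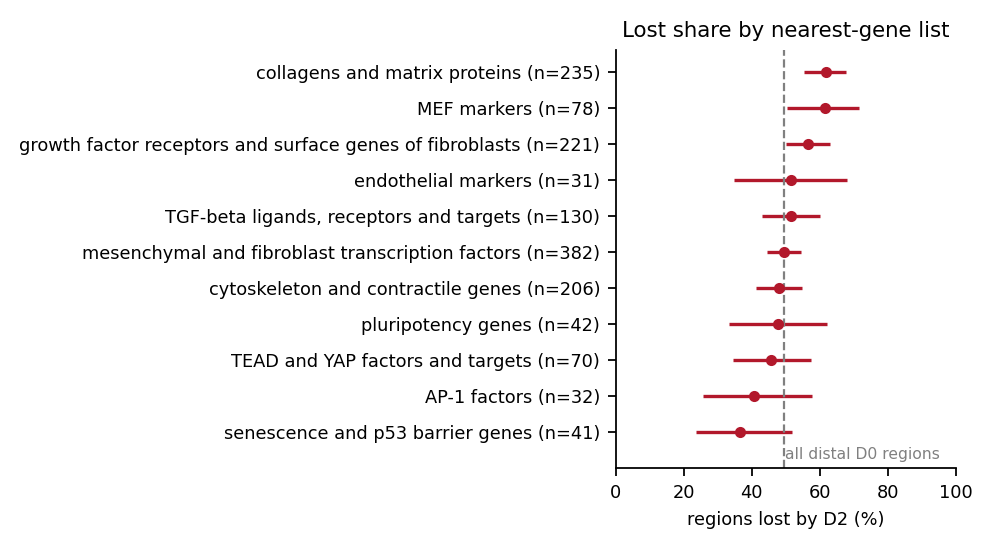
Share of distal D0 regions lost by D2 (%, Wilson 95% bars) among those nearest to genes of each list with 30 or more such regions. The dashed line is the 49.4% of all distal D0 regions, and matrix genes stand at 61.7%.

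Markers of the cell types were read the same way. Of 18 MEF marker genes, 14 had at least 1 distal D0 region and the same 14 at least 1 lost region, 48 of 78 regions in all (61.5%, 50.4 to 71.5). Endothelial markers had 16 of 31 lost, 6 of 14 of them at Cdh5, adipocyte markers 7 of 16, chondrocyte markers 9 of 15, neuronal markers 12 of 18, macrophage and blood markers 5 of 10, all at Ptprc, skeletal muscle markers 4 of 5, and Schwann and neural crest markers 2 of 4. At D0 the start sites of MEF markers had H3K27ac in 8 of the 10 with a start site in the table, those of macrophage and blood markers in 0 of 5, of skeletal muscle markers in 1 of 6, of endothelial markers in 3 of 6, of neuronal markers in 4 of 6, of chondrocyte markers in 2 of 5, of adipocyte markers in 3 of 6 and of Schwann and neural crest markers in 1 of 4. The lost shares of neuronal, chondrocyte and skeletal muscle markers were 66.7%, 60% and 80%, on few regions. A share as high as that of MEF markers was thus not particular to them. The part of other cell types in the lost regions was not tested.

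The start sites of genes with many lost regions mostly kept their promoter mark, as did those of all genes with it at D0. The 69 genes with 10 or more lost regions and a start site in the table had H3K4me3 there in 61 cases at D0, and 1 of these lacked it at D2, with 0.784% over all genes with a D0 peak. In iPSCs 3 of the 61 lacked it (4.92%, 3.68% over all). H3K27ac at the start site, which comes from the same lists as the rule, was on 59 of them at D0. Of these, 9 lacked it at D2 (15.3%, 8.24 to 26.5; 12.7% over all) and 36 in iPSCs (61.0%, 48.3 to 72.4; 47.5% over all). Where every one of at least 3 distal D0 regions was lost, 25 of 95 genes lacked start-site H3K27ac at D2 (26.3%, 18.5 to 36.0), against 16 of 124 genes (12.9%, 8.10 to 19.9) where none of at least 3 was lost. H3K4me3 was still called at D2 on the start sites of all 101 and all 135 genes of these groups that had it at D0, where 0 of 101 allows up to 3.66% and 0 of 135 up to 2.77%.

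Start sites of genes with many lost regions held H3K27me3 less often than those of genes with none at D0 and more often at each later stage. The intervals were apart at 5 of the 8 stages. Of the 69 genes with 10 or more lost regions, 14 had it at D0 (20.3%), 12 at D2, 24 at D4 (34.8%, 24.6 to 46.5), 11 at D6, 19 at D8 (27.5%, 18.4 to 39.1), 26 at D10 (37.7%, 27.2 to 49.5), 19 at D12 (27.5%) and 27 in iPSCs (39.1%, 28.5 to 50.9). Of the 1760 genes with a distal D0 region and no lost region, 24.8% had it at D0, 15.7% at D2, 22.0% (20.1 to 24.0) at D4, 11.1% at D6, 14.4% (12.9 to 16.1) at D8, 19.2% (17.4 to 21.1) at D10, 13.01% at D12 and 23.8% (21.8 to 25.8) in iPSCs. Over all 17492 genes with a start site the shares were 20.2%, 13.4%, 17%, 9.37%, 12.4%, 15.8%, 10.1% and 18.8% in the same order. The intervals of genes with 10 or more lost regions and of genes with none overlapped at D0, D2 and D6 and were apart at D4, D8, D10, D12 and in iPSCs. Slit3 and Nav2 already had H3K27me3 at D0 and had it at D10 and in iPSCs, Foxp1 had it from D2 with a gap at D6, and Trib2 had it at D10 alone. Long genes and genes in gene-poor surroundings collect more nearest regions, and the part of this in the difference was not tested.

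A few lost regions had a D0 fold well above the others. The 12 highest lay nearest to Cr2, Gm40892, Ajap1, Gpd2, Ttc21b, Plcb4, Dop1b, Msl2, Xpo4, Rasal2, Ric1 and Kcnj3. The first 8 had folds of 15.9 to 31.1 and the next, in Xpo4, a nuclear transport receptor gene, 10.7. Those 8 were 287 to 314 bp wide, close to the smallest width of 286 bp. Many lower ones were as narrow, since 997 of the 10882 lost regions were no wider than 314 bp. No region was left out here for repeats or for being hard to map, and the part of mapping in these high folds was not tested. Of those 8, the ones at Cr2, Ajap1, Gpd2 and Ttc21b also had peaks of H3K9me3 and H3K27me3 in later lists. The same regions had H3K18la in iPSCs, and those at Ajap1 and Ttc21b also H3K4me3 in iPSCs. The one at Gm40892 had an H3K9me3 peak and the one at Plcb4 an H3K27me3 peak, both in iPSCs. The one at Msl2 had H3K9me3 at D0 and D2. The region at Dop1b had no peak of another mark. From Xpo4 down the leading lost regions carried no H3K4me3, H3K27me3 or H3K9me3 at any stage, and those at Ric1 and Kcnj3 an H3K18la peak at D8 and D0. Lost regions that led their gene list had lower folds, such as 8.12 in Runx1t1 (a corepressor gene), 6.79 near Egfr, 6.36 in Vgll4 (a TEAD cofactor), 6.06 near Klf2, 5.82 in Pdlim5, 5.06 near Ywhaz, 5.03 near Igfbp3 and 4.65 in Cdh1, the E-cadherin gene.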

How the data were processed

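CUT&Tag peak lists of 5 marks at 8 stages (40 lists, 80 libraries by the labels) were used. The tools were MACS2 2.1.2, Bowtie2 2.2.5, deepTools 3.4.3 and fastp 0.20.1, with mm10 as build, per the submitters' processing notes. Pooling and controls are not given in the sources used here. Values deposited for a peak are a fold enrichment by the authors (a ratio to the local background), their −log10 p-value and −log10 q-value, a display score and a summit offset in bp. The fold and p-value were used to describe and rank D0 peaks within their list. The lists give no read totals, so depth is unknown apart from the peaks. The fragments at a summit and the background were solved from the deposited fold and p-value under a Poisson model, within 0.01 on the −log10 scale, for 21999 of 22021 distal D0 regions, and merging, distances and solving were tested on simulated data.

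Of 713652 peaks, 3092 lay outside chromosomes 1 to 19, X and Y and were left out. Genes, start-site windows and miRNAs came from RefSeq tables of GRCm38.p6, with 21887 protein-coding genes, 17492 with a start site, around which 1 kb each side was searched for peaks. Python 3.11.15, numpy 2.4.6, pandas 2.3.3, scipy 1.17.1 and matplotlib 3.10.9 were used. Shares have Wilson 95% intervals, which cover counting error only. With 1 list per mark and stage no test across samples was possible, and none is given. The regions, gene lists, markers and motifs were chosen with earlier results of these data known. Named were the 12 lost regions of highest D0 fold, the highest of each gene list, the 15 genes nearest to most lost regions, and list genes with most lost regions, apart from items not reported here; the 4 genes mapped, the genes lying far from their list's share, the domains and the sequences were chosen after their values were seen. All 339 list symbols matched.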

Additional observations from a re-analysis of the deposited data

How the results depend on the processing

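The number of lost regions was 11918 with a 2 kb and 9453 with a 10 kb distance from gene ends, 9323 after joining peaks within 1 kb and 12895 with D0 peaks taken one by one and any later peak required to cover most of them. It was 2227 with H3K27ac lists of equal length, 7167 with a q-value of 1e-10 or below in every list and 3600 with that limit at D0 alone, where the lists themselves are shorter. The lost share of distal D0 regions was then 34.3%, 67.6% and 34.1%, 44.6% after joining and 57.9% one by one, so the share depends on how the lists are cut. The share with H3K18la at D0 was 12.8%, 13.3% and 8.47% in these 3 shorter sets and 6.96% one by one. It was 2.81% where H3K18la had to cover at least 50% of the region, 7.09% within 1 kb and 1.11% with its list shortened. For H3K4me3 the shares were 12.7%, 15% and 7.81% in the shorter sets, 6.25% at 2 kb, 4.72% at 10 kb, 4.67% after joining, 7.24% one by one, 4.05% with that cover and 7.002% within 1 kb. For H3K27me3 they were 2.71% with the q-value limit in every list, 1.44% with it at D0 alone, 1.96% at 2 kb, 1.38% with that cover, 2.21% within 1 kb and 0.450% with its list shortened, and for H3K9me3 0.588%, 1.45% and 0.515% under the last 3. The share within gene bodies was 55.0% in the first pair of shorter sets and 55.2% with the limit at D0 alone. The 4 counts given first were within 1.5 times of the main count, and the other 21 values of these results stayed within the main interval. The shares with other marks and within gene bodies were recomputed for lost regions only. Their contrast with the other classes was not tested under these alternatives.

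The AP-1 share of start-site windows was recomputed under alternatives chosen after seeing the data. It was 24.2% for lncRNA start sites, 20.0% for protein-coding ones, 25.0% for windows wholly inside the D0 peak, 21.2% with 1 window per region and 19.1% with the stricter TGACTCA. In each of these the interval of lost regions overlapped that of regions called again after D2 and lay above that of regions called at D2.

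No paired analysis was possible because each mark and stage has 1 deposited list, and for the same reason there was no replicate to leave out. Depth sets what absence means: a peak over the genome-wide background needed 14 fragments at D2, and more where the local background was higher. At D0 the local background of lost regions had a median of 5.67 fragments, so absence at D2 does not mean fewer than 14 fragments.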
